A study of Mus musculus with 5 samples.

Results

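The p53 pathway and its apoptotic effectors were read out in mouse embryos after conditional deletion of Oct4, as 41 genes of the 49671 in the deposited count table. The rule that defines them lists genes by name and uses no measured value. Earlier results of these data were known when the genes were chosen. They comprise p53 (Trp53) with 2 inhibitors, 5 p53 targets that slow the cell cycle, 11 other p53 targets, the 2 pore formers of the mitochondrial outer membrane, 8 BH3-only killer proteins, 3 survival proteins of the BCL2 type, 4 genes of the death receptor branch and 5 of the apoptosome and its release factors. The comparison addresses whether transcripts of a p53 or cell death response differed when Oct4 was lost from the epiblast.

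RNA was sequenced from 5 embryos around the onset of gastrulation, each sample being the manually dissected epiblast and visceral endoderm (VE) of an embryo. The 2 SO+ control embryos carried no Cre transgene (Sox2Cre-/-) and were Oct4 fl/+, with a floxed and an intact allele. The 3 SO− embryos were Sox2Cre+/- and Oct4 fl/-, with a floxed and a null allele, so that a floxed allele was shared by both genotypes, and all were of mixed strain background. The Sox2 promoter drives Cre mainly in the epiblast, so the VE in each sample was mostly not the deleted tissue. Genotype, the presence of Cre, the second library index and sequencing depth separated the embryos in the same way and cannot be told apart. Age beyond the stage and sex were not given in the labels, and counts of Y-linked genes were present in all 5 embryos.

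p53 is a transcription factor that is kept scarce by Mdm2, a ubiquitin ligase which is itself a p53 target, and by Mdm4, its relative, which masks the activation domain. On DNA damage or other stress, the p53 protein is stabilised and raises a set of targets that arrest the cell cycle (Cdkn1a) or permeabilise mitochondria (Bbc3, Pmaip1, Bax). Bax and Bak1 form the pore, BH3-only proteins trigger it, and Bcl2, Bcl2l1 and Mcl1 restrain it. Cytochrome c (Cycs) then binds Apaf1 to activate caspase 9, while Xiap blocks caspases and Diablo relieves that block. The early postimplantation epiblast is known as a tissue that is primed for apoptosis and eliminates damaged or less fit cells readily. Because p53 activity is set largely at the protein level, the target transcripts are its usual readout in RNA.

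Promoter sequences of the members were searched for the p53 consensus. RefSeq promoter windows of GRCm38.p6, which run from 250 bases before to 50 bases after a transcription start, were present for 34 of the 41 members (51 windows, with several starts for some genes). Trp53inp1, Zmat3, Perp, Rrm2b, Pmaip1, Bik and Tnfrsf10b had none. The 10-base p53 half-site consensus, which reads the same on both strands, was found in 12 of 51 member windows (23.5%), against 8.36% of all 32851 windows. The 2 windows of Aen overlap and hold the same half-site, so it was counted in both. By gene, 11 of 34 members held one (32.4%), against 9.55% of all 27025 genes. The list was chosen to include p53 targets. A pair of half-sites at most 13 bases apart was found in 24 of all windows (0.0731%) and in 1 of the members'. That window was the one of the upstream start of Cdkn1a. The octamer ATGCAAAT, to which Oct4 binds, was searched on both strands and was present in 1 member window (1.96%), that of Eda2r, against 1.74% of all windows. A match in these letters is a description of the sequence and not of binding.

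The 250 bases before the start are shown for 4 of the usual p53 readouts that held a half-site, since these are the genes in which a p53 response would be read. Each runs 5′ to 3′ on the strand of its gene, with half-sites in capitals. Cdkn1a lies on the plus strand (chr17:29090729-29090978), and Mdm2 (chr10:117710759-117711008), Ccng1 (chr11:40755287-40755536) and Bax (chr7:45466899-45467148) on the minus strand.
Cdkn1a: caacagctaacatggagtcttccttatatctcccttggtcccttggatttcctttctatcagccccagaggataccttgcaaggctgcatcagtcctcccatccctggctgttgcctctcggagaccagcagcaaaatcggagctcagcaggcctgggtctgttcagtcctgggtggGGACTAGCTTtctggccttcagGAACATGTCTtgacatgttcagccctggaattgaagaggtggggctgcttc
Mdm2: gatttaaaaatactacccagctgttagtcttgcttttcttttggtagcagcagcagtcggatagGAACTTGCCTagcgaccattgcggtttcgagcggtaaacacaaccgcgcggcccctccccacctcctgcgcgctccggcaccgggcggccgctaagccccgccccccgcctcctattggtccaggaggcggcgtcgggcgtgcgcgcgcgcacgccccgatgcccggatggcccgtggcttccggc
Ccng1: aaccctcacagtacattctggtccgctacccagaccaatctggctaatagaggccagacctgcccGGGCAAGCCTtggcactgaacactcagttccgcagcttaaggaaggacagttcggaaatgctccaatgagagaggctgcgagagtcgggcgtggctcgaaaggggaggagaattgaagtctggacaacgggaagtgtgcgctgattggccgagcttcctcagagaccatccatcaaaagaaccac
Bax: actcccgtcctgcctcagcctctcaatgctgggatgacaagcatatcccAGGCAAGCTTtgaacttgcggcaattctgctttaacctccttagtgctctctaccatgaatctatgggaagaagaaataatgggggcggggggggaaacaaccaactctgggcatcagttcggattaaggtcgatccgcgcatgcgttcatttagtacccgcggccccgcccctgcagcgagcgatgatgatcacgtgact
The Cdkn1a sequence shown is that of its upstream start, and the half-sites begin 73 and 51 bases before that start. The window of the downstream Cdkn1a start held 0 half-sites. The single half-sites of Mdm2, Ccng1 and Bax begin 186, 185 and 201 bases before the starts of these genes. Aen, described later, held 1 half-site, which begins 121 bases before one of its 2 starts, and Trp53 itself held 1 at 75 bases before its start.

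Deletion of Oct4 was visible in the target gene itself. Pou5f1, which encodes Oct4, was counted at 920 and 437 CPM in SO+ embryos 1 and 2 and at 28.0, 12.5 and 44.1 CPM in SO− embryos 1, 2 and 3. It fell by 4.43 on the log2 scale (SE 0.33, adjusted p = 3.94e-05). CPM are read counts per 1000000 of the library size after scaling with TMM factors, and each test of a gene is edgeR's quasi-likelihood F test with Benjamini-Hochberg adjustment over the 12067 genes that passed the filter on low counts. Total counts were 27047148 and 27538119 in the SO+ libraries and between 1117566 and 4191498 in the SO− libraries, so that 3 counts equal 0.109 CPM in SO+ embryo 1 and 2.68 CPM in SO− embryo 2. Levels of low genes are therefore least certain in SO− embryo 2. The counts of the maternal and blood cell markers summed to between 0.892 and 6.12 CPM, and 6 of those 9 markers were at 0 in every library. Extra-embryonic ectoderm markers, 6 in all, summed to 11.3 and 13.5 CPM in SO+ and to 18.0, 23.2 and 16.2 CPM in SO− embryos. Of the 4 tested, 3 were higher and 1 lower on average in SO−. An unadjusted p under 0.05 was reached by 1 (25%, against 13.7% of all genes tested) and an adjusted p under 0.05 by 0. VE markers summed to 2401 and 2638 CPM in SO+ embryos and to 3771, 3646 and 2322 CPM in SO− embryos. All 9 were higher on average in SO−, with 5 at an unadjusted p under 0.05 and 0 at an adjusted p under 0.05. The part of this tissue balance in the results that follow was not tested, and fewer cells of a type cannot be told apart from less RNA per cell. The epiblast markers, 8 in all, were present in every embryo, with 5 lower and 3 higher on average in SO−. Pou5f1, Utf1 and Dnmt3b fell at an adjusted p under 0.05. The 3 higher were Sox2, Fgf5 and Nanog, with log2 fold changes of 0.56, 0.38 and 0.02, none of them past that threshold.

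No member passed the adjusted threshold in either direction, which edgeR gave as 0 of the 37 members tested. The same test called 283 of 12067 genes (2.35%), with 171 higher (1.42%) and 112 lower (0.928%) in SO− embryos. The smallest adjusted p among members was 0.0752, for Aen. At an unadjusted p under 0.05 there were 8 members (21.6%), 5 higher and 3 lower in SO−, against 1656 of all genes tested (13.7%). DESeq2 also gave 8 members at an unadjusted p under 0.05, of 40 it tested, against 7.27% of all 21777 genes it tested. With limma-voom there were 7 of 37, against 12.1% of all genes. Past the adjusted threshold DESeq2 had 1 member (Aen) among 380 genes called, and limma-voom 0 among 91. On average 17 members were higher and 20 lower in SO−, with a median log2 fold change of −0.05, against 0.00 over all genes tested. The median absolute log2 fold change was 0.28 among the members tested and 0.21 over all genes tested, as the cumulative plot of fold changes shows.

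**Figure D1:**
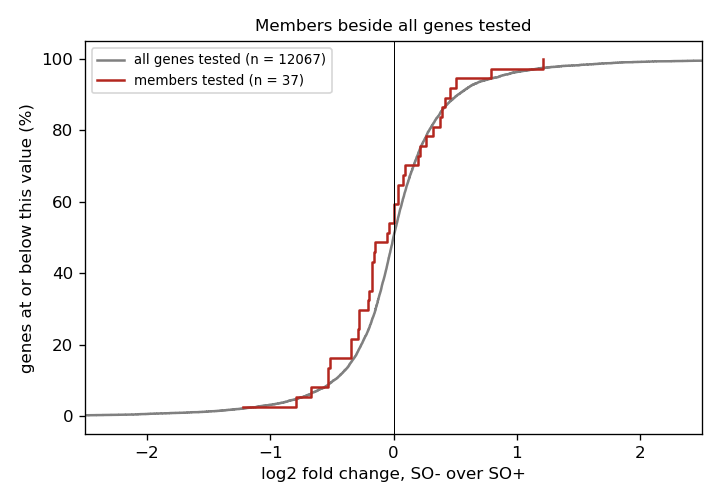
Cumulative share of genes (vertical axis, %) at or below each log2 fold change of SO− over SO+ embryos (horizontal axis, from −2.5 to 2.5) for the 37 members tested (red steps) and all 12067 genes tested (grey). The red steps cross the middle of the scale close to 0, at a median of −0.05, and span −1.22 (Phlda3) to 1.21 (Perp).

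The absence of a call is not evidence of equal levels, so the intervals were read. The 95% interval of the difference lay wholly below a 2-fold rise for 29 of the 37 members and wholly above a 2-fold fall for 26, with both true of 21. Over all genes tested, the same counts were 9502, 9637 and 7756. The median SE of the members was 0.26 on the log2 scale. Members with the widest intervals were those with few reads, such as Bcl2, Rrm2b, Bik and Polk. The genotypes did not overlap, with every SO− embryo above both SO+ embryos, for 4 members (10.8%, against 14.2% of all genes tested), and with every SO− embryo below both for 6 (16.2%, against 15.1%).

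**Figure D2:**
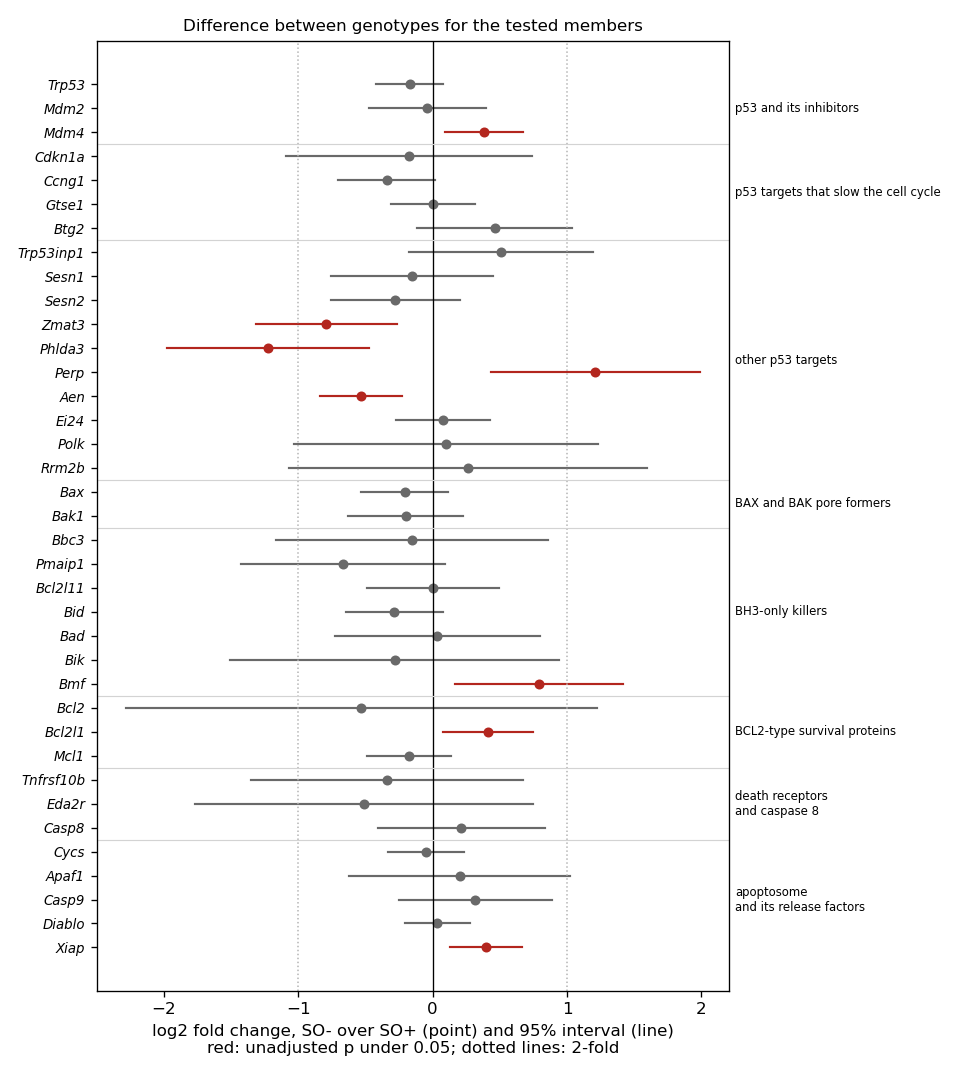
Log2 fold change of SO− over SO+ embryos (points, horizontal axis) with its 95% interval (lines) for the 37 members tested, ordered by role, with dotted lines at a 2-fold difference. Red marks the 8 members with an unadjusted p under 0.05, and 0 members passed the adjusted threshold.

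Trp53 was the most abundant member per transcript length, with a mean of 91.9 FPKM (CPM divided by exon length in kilobases), followed by Bax at 68.9 and Mcl1 at 47.3 FPKM. It was counted at 389 and 410 CPM in SO+ embryos and at 384, 304 and 371 CPM in SO− embryos. All SO− values lay below the SO+ values, though SO− embryo 1 by little. The log2 fold change was −0.17 (SE 0.11, adjusted p = 0.582), and the interval of the fold ran from 0.749 to 1.05. Mdm2, at once inhibitor and target of p53, was counted at 33.9 and 45.3 CPM in SO+ and at 36.8, 46.4 and 35.2 CPM in SO− embryos. The genotypes overlapped fully, with a log2 fold change of −0.04 (SE 0.20, adjusted p = 0.970) and a fold between 0.720 and 1.32. Mdm4 stood at 84.7 and 86.9 CPM in SO+ and at 104, 128 and 107 CPM in SO− embryos. Every SO− embryo was above both controls, with a log2 fold change of 0.38 (SE 0.13) that did not pass the adjusted threshold (adjusted p = 0.202). In FPKM, the ratio of Mdm4 to Trp53 was 0.0594 and 0.0578 in SO+ and 0.0739, 0.115 and 0.0790 in SO− embryos. That separation follows from the values of its 2 genes. The ratio of Mdm2 to Trp53 overlapped, at 0.0693 and 0.0879 in SO+ and 0.0763, 0.121 and 0.0755 in SO− embryos.

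The targets that slow the cell cycle were at modest levels. Cdkn1a encodes p21, the cyclin-dependent kinase inhibitor that is the standard readout of p53 activity. It was counted at 9.58 and 6.94 CPM in SO+ and at 10.7, 4.46 and 5.55 CPM in SO− embryos. SO− embryo 1 was the highest of the 5 and SO− embryo 2, with 5 reads, the lowest, so the genotypes overlapped. The log2 fold change was −0.18 (SE 0.42, adjusted p = 0.930), with a fold between 0.469 and 1.67 that excludes a doubling but not a halving. Cdkn1a lies 6.42 Mb from Pou5f1 on chromosome 17 and Bak1 8.49 Mb from it, and the part of alleles carried with the targeted locus was not tested. Ccng1 (cyclin G1), a strong p53 target, was counted at 50.2 and 58.2 CPM in SO+ and at 43.4, 46.4 and 39.8 CPM in SO− embryos. Its values did not overlap and were lower in SO−, by −0.34 on the log2 scale (SE 0.17, adjusted p = 0.401). Btg2, an antiproliferative regulator of mRNA decay, was at 11.5 and 13.6 CPM in SO+ and at 16.3, 16.1 and 19.1 CPM in SO− embryos. All SO− values were higher, with a log2 fold change of 0.46 (SE 0.27, adjusted p = 0.499). Gtse1, a mitotic protein that restrains p53, lay between 60.7 and 71.9 CPM in all 5 embryos. Plk2, a Polo-like kinase, was rare, with 57 and 47 reads in SO+ embryos and 1 in each SO− embryo, and was left out by the filter. Pooled by genotype and corrected for library size, its level in SO− was 0.168 of that in SO+ (95% interval 0.0340 to 0.504 for counting error only). Without the filter, the edgeR test of Plk2 had an adjusted p of 0.350. Under a filter of at least 10 counts in every embryo of a genotype, it was 0.180.

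**Figure D3:**
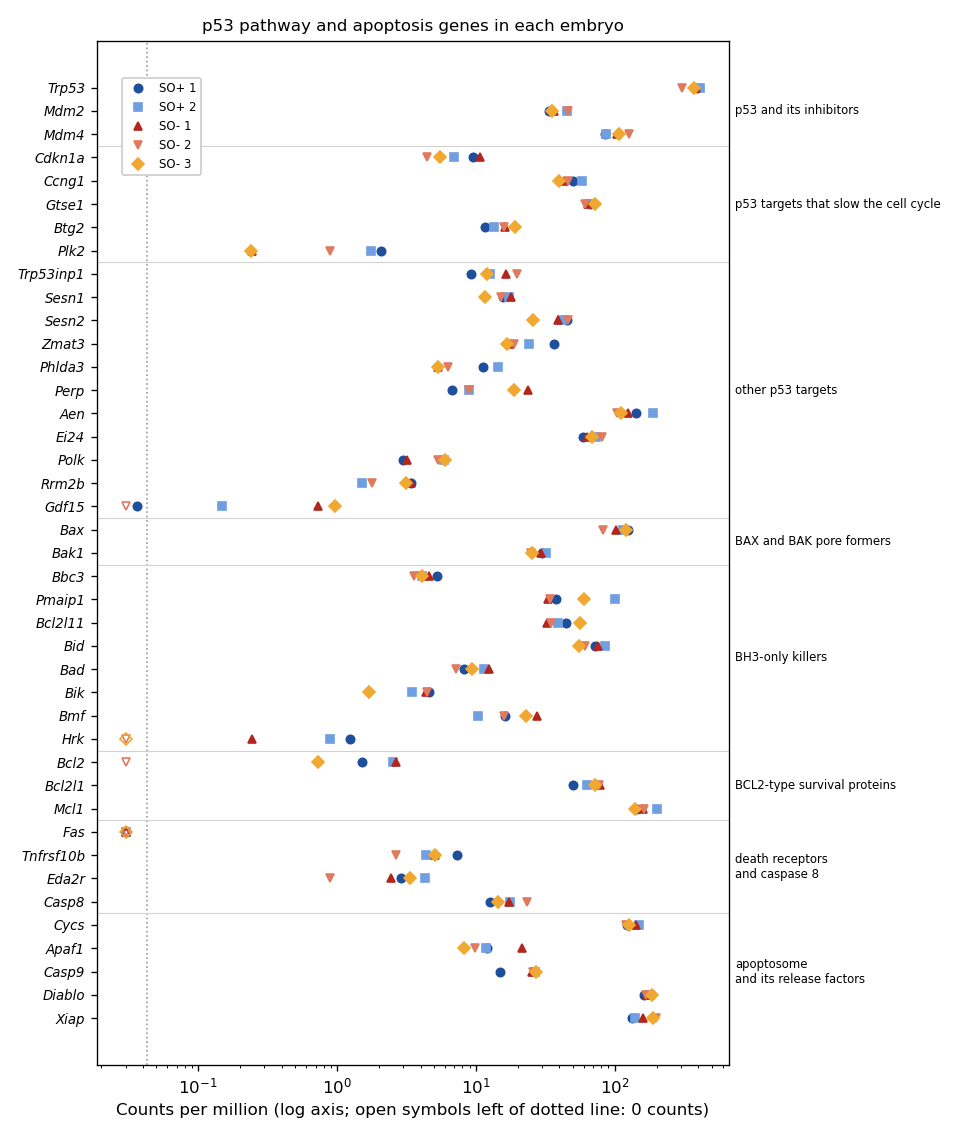
CPM (horizontal log axis) of the 41 members in each of the 5 embryos, ordered by role, with blue symbols for SO+ and red to yellow symbols for SO− embryos and open symbols at the left for 0 counts. Symbols of both genotypes lie together for most members, from Fas at 0 in every embryo to Trp53 between 304 and 410.

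Of the 11 other p53 targets, 10 were tested. At an unadjusted p under 0.05 there were 4 (40%, against 13.7% of all genes tested), 3 lower and 1 higher in SO−. Aen, a nuclease that p53 induces during apoptosis, was counted at 143 and 187 CPM in SO+ and at 124, 104 and 110 CPM in SO− embryos. All SO− embryos lay below both controls, and the log2 fold change was −0.53 (SE 0.14, adjusted p = 0.0752). This difference was past the threshold without SO+ embryo 1 (−0.72, adjusted p = 0.00774) and far from it without SO+ embryo 2 (−0.33, adjusted p = 0.365). Over all 15 alternatives its adjusted p ran from 0.00774 to 0.365, and 4 of them were past the threshold. Phlda3, which p53 induces to repress Akt signalling, was at 11.3 and 14.5 CPM in SO+ and at 5.36, 6.25 and 5.31 CPM in SO− embryos. The SO− values were close together and well below the controls, with a log2 fold change of −1.22 (SE 0.35, adjusted p = 0.0989) that none of the alternatives brought past the threshold. Zmat3, a p53 target that binds RNA and regulates splicing, was at 36.6 and 24.1 CPM in SO+ and at 17.5, 18.7 and 16.9 CPM in SO− embryos. The log2 fold change was −0.79 (SE 0.24, adjusted p = 0.134). It was −1.06 (adjusted p = 0.0228) without SO+ embryo 2 and −0.46 (adjusted p = 0.774) without SO+ embryo 1, the library with the highest level.

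Perp, a p53 target and desmosome protein of epithelia, was higher on average in SO− embryos. It was counted at 6.71 and 8.95 CPM in SO+ and at 23.6, 8.92 and 18.8 CPM in SO− embryos, so that SO− embryo 2 lay at the level of the controls. Perp was singled out after its values were seen, and its log2 fold change of 1.21 (SE 0.36) had an adjusted p of 0.117. The sestrins, which restrain mTORC1 under stress, overlapped between genotypes, with Sesn1 between 11.6 and 18.0 CPM and Sesn2 between 25.8 and 46.4 CPM. Trp53inp1, a stress protein that promotes p53-dependent death and autophagy, lay between 9.22 and 19.6 CPM, and Ei24, a protein of the endoplasmic reticulum, between 58.8 and 80.3 CPM. Polk, a translesion DNA polymerase, and Rrm2b, the p53-inducible subunit of ribonucleotide reductase, stayed at or below 6.03 CPM. Gdf15, a secreted stress cytokine, had 1 and 4 reads in SO+ and 3, 0 and 4 reads in SO− embryos. With 7 SO− and 5 SO+ reads in all, its pooled ratio of SO− to SO+ was 8.14 (95% interval 2.22 to 32.5 for counting error only), and without the filter its adjusted p was 0.728.

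**Figure D4:**
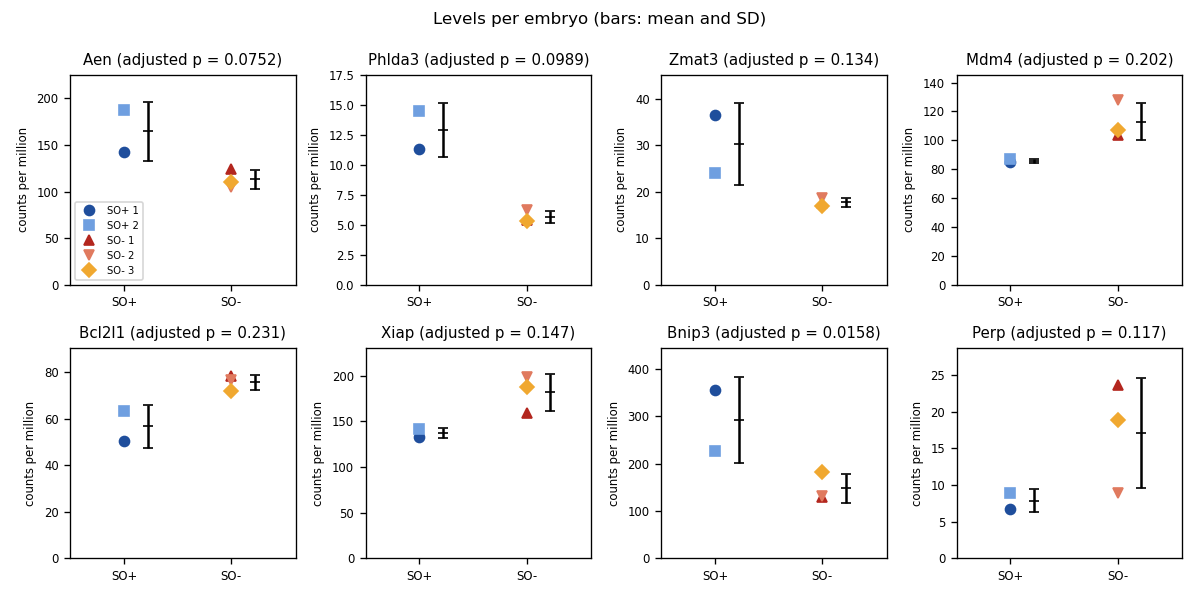
CPM (vertical axes, from 0) of 8 genes in each embryo, with the mean and SD of the genotype beside the points. Aen, Phlda3 and Zmat3 are lower and Mdm4, Bcl2l1 and Xiap higher in every SO− embryo without passing the adjusted threshold, Perp is at the level of the controls in SO− embryo 2, and Bnip3, which is not among the 41 genes, passed it.

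The mitochondrial pore formers were well expressed in both genotypes. Bax was counted at 125 and 114 CPM in SO+ and at 102, 82.1 and 120 CPM in SO− embryos. The ranges overlapped, and the log2 fold change was −0.21 (SE 0.15, adjusted p = 0.617) with a fold between 0.692 and 1.08. Bak1 was at 29.7 and 31.9 CPM in SO+ and at 29.2, 25.0 and 25.6 CPM in SO− embryos. The SO− values were lower by a narrow margin, with a log2 fold change of −0.20 (SE 0.20, adjusted p = 0.750). The exons of Bak1 share 437 bases with Ggnbp1 on the opposite strand, and since strand use in counting was not stated, reads there could belong to either gene.

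Among the BH3-only killers, the p53 targets Bbc3 (PUMA) and Pmaip1 (NOXA) are the usual link from p53 to the pore. Bbc3 was at 5.23 and 4.12 CPM in SO+ and at 4.63, 3.57 and 4.10 CPM in SO− embryos. The genotypes overlapped, with a log2 fold change of −0.16 (SE 0.47, adjusted p = 0.942). Pmaip1 was at 37.6 and 101 CPM in SO+ and at 32.9, 33.9 and 60.5 CPM in SO− embryos. The control embryos differed from each other by more than the genotypes did, and the log2 fold change was −0.67 (SE 0.35, adjusted p = 0.443). It became −1.21 (adjusted p = 0.00197) without SO+ embryo 1 and 0.21 (adjusted p = 0.841) without SO+ embryo 2, so its sign rests on 1 control library.

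Bcl2l11 (BIM), the main BH3-only protein outside the p53 pathway, was at 44.9 and 38.8 CPM in SO+ and at 32.6, 34.8 and 56.0 CPM in SO− embryos. SO− embryo 3 was the highest and the other SO− embryos the lowest, and the log2 fold change was 0.00 (SE 0.23, adjusted p = 0.998). Bmf, a BH3-only protein released from the cytoskeleton, was at 16.2 and 10.4 CPM in SO+ and at 27.8, 16.1 and 22.9 CPM in SO− embryos. It was named after its values were seen, and its log2 fold change of 0.79 (SE 0.29) had an adjusted p of 0.221. Bid, the substrate of caspase 8, lay between 55.0 and 84.5 CPM, Bad, which is held in check by phosphorylation, between 7.14 and 12.4 CPM, and Bik between 1.69 and 4.61 CPM, with overlap in each. Exons of Bid share 628 bases with Bcl2l13 and those of Bad 524 bases with Gpr137, both on the opposite strand. Hrk, a BH3-only gene of neurons, had 34 and 24 reads in SO+ and 1, 0 and 0 reads in SO− embryos. Its pooled ratio of SO− to SO+ was 0.100 (95% interval 0.00250 to 0.581 for counting error only). The adjusted p of Hrk was 0.456 without the filter and 0.199 with at least 10 counts in every embryo of a genotype.

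The survival proteins differed in abundance. Mcl1, a short-lived protein on which early embryos depend, had a mean of 47.3 FPKM, Bcl2l1 (BCL-XL) 14.8 FPKM, and Bcl2 itself only 0.163 FPKM. Bcl2l1 was counted at 50.2 and 63.1 CPM in SO+ and at 78.2, 76.8 and 71.9 CPM in SO− embryos. Every SO− embryo was above both controls, with a log2 fold change of 0.41 (SE 0.15, adjusted p = 0.231). Mcl1 was at 146 and 201 CPM in SO+ and at 160, 162 and 140 CPM in SO− embryos. SO− embryos 1 and 2 lay between the SO+ embryos and SO− embryo 3 below both, and the log2 fold change was −0.17 (SE 0.14, adjusted p = 0.679). Bcl2 was at 1.52 and 2.52 CPM in SO+ and at 2.68, 0 and 0.723 CPM in SO− embryos, so that a difference was not detectable at this depth (log2 fold change −0.53, SE 0.81, adjusted p = 0.866). The summed FPKM of the 3 survival genes over that of the 2 pore formers was 0.588 and 0.848 in SO+ and 0.834, 1.03 and 0.653 in SO− embryos. The ratio of Bcl2l1 to Bax was 0.139 and 0.190 in SO+ and 0.263, 0.321 and 0.206 in SO− embryos, above both controls in every SO− embryo, as follows from the values of its 2 genes.

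**Figure D5:**
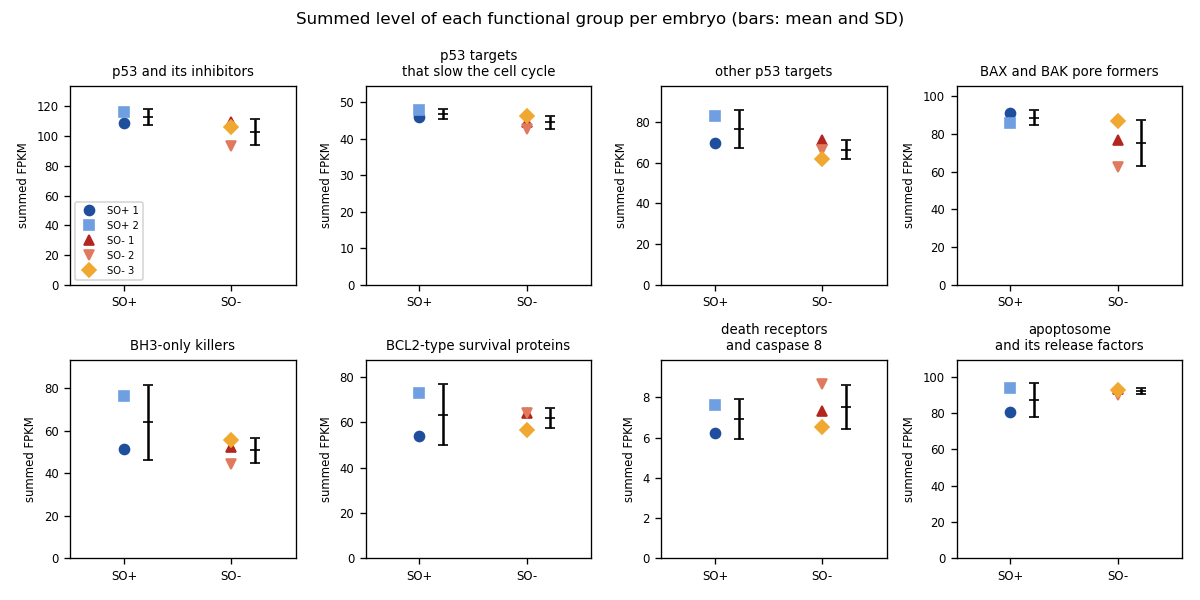
Summed FPKM (vertical axes, from 0) of each of the 8 functional groups in each embryo, with mean and SD of the genotype beside the points. The ranges of SO+ and SO− embryos overlap in every panel, as for the survival proteins, at 53.7 and 72.8 in SO+ and 64.2, 64.3 and 56.7 in SO− embryos.

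The death receptor branch was weakly expressed. Fas, the classical p53-inducible death receptor, had 0 reads in all 5 embryos, which allows up to 0.109 CPM in the deepest library. Tnfrsf10b, the receptor for TRAIL, lay between 2.68 and 7.26 CPM and Eda2r, an X-linked receptor of the TNF family, between 0.892 and 4.27 CPM. Casp8, the initiator caspase of this branch, was higher, between 12.7 and 23.2 CPM, and overlapped between genotypes (log2 fold change 0.21, adjusted p = 0.839). The summed level of the 4 genes was 6.21 and 7.64 FPKM in SO+ and 7.33, 8.66 and 6.50 FPKM in SO− embryos.

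The apoptosome genes differed in level, from a mean of 38.8 FPKM for Cycs to 1.40 FPKM for Apaf1. Cycs lay between 121 and 148 CPM and Diablo between 163 and 184 CPM, with log2 fold changes of −0.05 and 0.04. Reads of Cycs may be split with near-identical copies, of which Gm10053 had 752 reads in SO+ embryos beside 7362 of Cycs. The exons of Diablo share 1326 bases with B3gnt4 on the opposite strand, which had 22 reads in SO+ embryos beside 9289 of Diablo. Apaf1, the scaffold of the apoptosome, lay between 8.20 and 21.4 CPM, with the highest value in SO− embryo 1. Casp9 was at 15.0 and 26.9 CPM in SO+ and at 25.3, 25.9 and 27.0 CPM in SO− embryos. Only SO+ embryo 1 stood apart, and the log2 fold change was 0.32 (adjusted p = 0.679). Xiap, the X-linked inhibitor of caspases, was at 133 and 141 CPM in SO+ and at 159, 198 and 187 CPM in SO− embryos. All SO− embryos were above both controls, with a log2 fold change of 0.40 (SE 0.12, adjusted p = 0.147) and adjusted p values between 0.0802 and 0.485 over the 15 alternatives.

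Genes of the same pathway outside the 41 were counted from lists written for it. Of 24 other p53 targets, 21 were tested and 0 passed the adjusted threshold with edgeR, with a median log2 fold change of −0.06. At an unadjusted p under 0.05 there were 3 (14.3%, all lower in SO−), close to the 13.7% of all genes tested. Of 24 regulators of p53, 22 were tested, with 0 past the threshold and 3 at an unadjusted p under 0.05 (13.6%). One of these was Trp73, a p53 family member singled out after its values were seen, with 88 and 84 reads in SO+ and 2, 0 and 0 reads in SO− embryos. Its pooled ratio of SO− to SO+ was 0.0676 (95% interval 0.00812 to 0.248 for counting error only), and its adjusted p was 0.0605 (0.0462 to 0.265 over the alternatives). Of 12 genes of the integrated stress response, which ATF4 and CHOP drive, 10 were tested and 0 passed at either threshold, with a median of 0.01.

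Bnip3, a mitophagy receptor of the BCL2 family that hypoxia induces, fell by 0.97 on the log2 scale (SE 0.19, adjusted p = 0.0158), from 356 and 227 CPM in SO+ to 129, 132 and 183 CPM in SO− embryos. It was 1 of 5 genes tested in a list of 10 other BCL2 family genes. Of those tested, 2 had an unadjusted p under 0.05 (40%, against 13.7% of all genes tested). The call of Bnip3 was lost without SO+ embryo 1 (log2 fold change −0.61, adjusted p = 0.0591), SO− embryo 1 (−0.87, 0.231) or SO− embryo 2 (−0.90, 0.259), and also with limma-voom (−0.92, 0.206) and with a robust spread (−0.97, 0.105).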

How the data were processed

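RNA was prepared from single embryos with SmartSeq2, which attaches no molecular identifiers. After trimming with cutadapt, the authors mapped reads with STAR (GRCm38/mm10) and tallied them over Ensembl genes in HTSeq; the deposited values are raw counts, not normalized. Strand use and duplicate removal are not given in the sources used here. Embryos were grouped by the genotype in their labels, 2 SO+ and 3 SO−, as separate samples.

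These were fitted by genotype alone in edgeR 4.0.16 under R 4.3.3, using filterByExpr, TMM factors and quasi-likelihood F tests. Benjamini-Hochberg adjustment covered 12067 genes, at a threshold of 0.05. The SE of a log2 fold change was derived from its F statistic. FPKM used exon lengths of GENCODE M21, which matched 99.3% of genes. Ratios of few reads have exact Clopper-Pearson intervals. These exact intervals and the floors of 3 counts cover counting error only. The intervals of fold changes come from the edgeR fit and include the spread between embryos. Total counts ranged from 1117566 to 27538119. The scripts were tested on simulated data.

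The members and gene lists were chosen with earlier results of these data known. Folds are given for members past the threshold, members without overlap between genotypes and the usual p53 and BCL2 readouts; list genes are named when past the threshold, apart from 1 result that is not reported here. Perp, Bmf and Trp73, and the folds of Casp8, Casp9, Cycs and Diablo, were added after their values were seen. The 15 alternatives were DESeq2 1.42.0, limma-voom (limma 3.58.1), 3 other scalings, 2 other filters, robust spread, the replicate number as a block, each of 5 embryos left out, and SO+ counts thinned to the mean SO− total.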

Additional observations from a re-analysis of the deposited data

How the results depend on the processing

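The count of members past the adjusted threshold, 0 with edgeR, was 1 of 40 tested with DESeq2, beside 380 of all 21777 genes. It was 1 of 37 with a robust spread, beside 313 of all 12067 genes (Aen in both). It was 0 with limma-voom, under each other scaling or filter, with thinned SO+ counts and without any 1 SO− embryo. Without SO+ embryo 1 or 2, only 1 control was left, and the fold changes of Aen, Pmaip1 and Zmat3 moved as described above. The count over all genes, 283, was 91 with limma-voom and between 35 (without SO− embryo 2) and 573 (without SO+ embryo 2) when embryos were left out, also 46 without SO− embryo 1 and 180 without SO+ embryo 1. Pou5f1 kept its direction throughout, but its adjusted p was 0.0639 with limma-voom (log2 fold change −4.36) and 0.0988 with a robust spread (−4.43). Leaving out embryos moved the median log2 fold change of the members between −0.22 (without SO− embryo 1) and −0.0072 (without SO+ embryo 2). The cause of these changes was not tested.

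Same-numbered embryos of the genotypes were different animals and their deviations were not clearly related (r of −0.01 and 0.12), so the numbers were not taken as pairs. With the replicate block, 929 genes and 2 members (Aen and Pmaip1) were called, and the log2 fold change of Mdm2 was 0.081 and of Bcl2l11 −0.33.

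Other sign changes came with embryos left out or, for Bcl2l11, with other settings. Pmaip1 had the largest difference among these members (−0.67 with all embryos). With embryos left out, log2 fold changes ran from −0.24 to 0.18 for Mdm2, −0.68 to 0.071 for Cdkn1a, −0.32 to 0.020 for Bbc3, −1.21 to 0.21 for Pmaip1, −0.33 to 0.17 for Bcl2l11 and −0.39 to 0.072 for Mcl1. For Bcl2l11, at 0.00, the value was −0.0065 with DESeq2, −0.012 with upper quartile scaling, −0.0035 with no scaling factor and −0.029 with no filter. Depth limits Cdkn1a, Bbc3, Bcl2, Plk2, Hrk, Gdf15, Fas, Bik, Tnfrsf10b, Rrm2b and Eda2r, which had at most 5 reads each in SO− embryo 2.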
